A study of Mus musculus with 56 samples.

Results

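Collagen genes were followed in whole adrenal glands of mice that lack Znrf3 in the steroid-making cells of the cortex. Members were the protein-coding mouse genes whose whole symbol has the form of a collagen chain (Col, a type number, a and a chain number) and whose mean level reached 1 CPM (counts scaled to a common library total, with TMM factors) in at least 1 group. Of 44 genes with such a symbol, all listed in each of the count tables, 38 reached that level, out of 55141 identifiers that have an annotation. The 6 that did not were Col24a1, Col2a1, Col17a1, Col10a1, Col19a1 and Col9a1. The highest group mean was 0.349 CPM for Col24a1 and 0.314 CPM for Col2a1, just outside the threshold, against 1.41 CPM for Col9a3 and 1.78 CPM for Col26a1, just inside it. Col26a1 reached the threshold in control groups only.

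Collagens are the main structural proteins of the extracellular matrix, built from 3 chains wound into a triple helix. Fibrillar collagens form the fibres of the capsule and stroma, type IV collagens form the sheet-like network of basement membranes, and fibril-associated, beaded, transmembrane and multiplexin collagens connect these to each other and to cells. In the adrenal gland, fibroblasts of the capsule lay down fibrils, while the cords of steroid-making cells and the dense capillaries each lie on basement membrane.

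All animals were C57BL/6J. The knockout (cKO) carried SF1-Cre, which is active in steroidogenic cells of the cortex, together with Znrf3 Fx/Fx, a floxed allele. Znrf3 is a ubiquitin ligase at the cell surface that takes Wnt receptors out of the membrane. Controls were littermates that were SF1-Cre negative, and their Znrf3 alleles are not given in the sources used here. Each of the 14 groups held 4 libraries that the labels call biological replicates, 56 in all: female control and cKO glands at 6, 9 and 12 weeks, male control and cKO glands at 4, 6 and 9 weeks, and glands of male cKO animals taken at 9 weeks after castration or sham surgery at week 4. The animals of the surgery groups carried mixed reporter alleles, R26eYFP/WT in sham replicates 1 and 4 and castrated replicate 1, R26mTmG/WT in sham replicate 2, R26mTmG/mTmG in castrated replicates 3 and 4, and none in the others. All 4 sham libraries carry the number 1 in the labels, so their replicate numbers here only name them in accession order. The labels give castrated and sham animals no control without the knockout, and they share the Cre and the floxed allele.

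Counts summed to 35.7M to 51.6M per library in females, 12.4M to 35.5M in males and 25.1M to 42.4M in the surgery groups. Counts over the whole Znrf3 gene do not check the deletion. They lay higher in every cKO gland than in every control of the same sex and week, at 55.6 to 100.8 CPM against 31.2 to 40.4 CPM over the female groups. In the male groups the ranges were 34.2 to 62.0 CPM in cKO glands and 26.4 to 42.7 CPM in controls. Summed liver markers (Alb, Apoa1 and Ttr) stood at 329 CPM in replicate 2 of the female cKO glands at 12 weeks and at most 98.6 CPM elsewhere. Without that library the counts of collagen genes called at 12 weeks were the same, 3 higher and 18 lower. The next highest sums were also in cKO glands, 98.6, 84.6 and 62.4 CPM in males at 4, 9 and 6 weeks. No control exceeded 3.65 CPM, so raised liver markers went with genotype. In males with all libraries 19, 16 and 8 collagen genes were called lower at 4, 6 and 9 weeks. Without replicate 2 at 4 weeks, 2 at 6 weeks or 3 at 9 weeks of the cKO glands, these were 16, 10 and 6. Those 3 libraries held the sums of 98.6, 62.4 and 84.6 CPM. Without replicate 1 of the same groups the counts were 16, 10 and 8. The part of liver markers in the collagen results was not tested beyond this. In bulk tissue, fewer cells of a type and less RNA per cell cannot be told apart.

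Most collagen genes that differed between genotypes were lower in cKO glands, and a few were higher each time. Genes were called at an adjusted p under 0.05 in edgeR's quasi-likelihood test, adjusted by Benjamini-Hochberg over all genes tested, and all 38 members were tested in both sexes. In females at 6 weeks 3 members were called higher and 21 lower, where 14.2% and 19.1% of all genes tested were called in those directions. At 9 weeks the members' counts were 3 higher and 26 lower (14.6% and 20% of all genes), and at 12 weeks 3 higher and 18 lower (9.11% and 16%). In males the counts were 4 higher and 19 lower at 4 weeks (6.30% and 12.9% of all genes), 4 higher and 16 lower at 6 weeks (8.18% and 11.9%), and 3 higher and 8 lower at 9 weeks (10.4% and 13.6%). The share of members called lower thus stood above that of all genes in every comparison, and by least in males at 9 weeks. The members' median log2 fold change was -0.74, -0.98 and -0.62 in females at 6, 9 and 12 weeks and -0.72, -0.56 and -0.09 in males at 4, 6 and 9 weeks, while the median over all genes lay between -0.02 and 0.01.

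**Figure D1:**
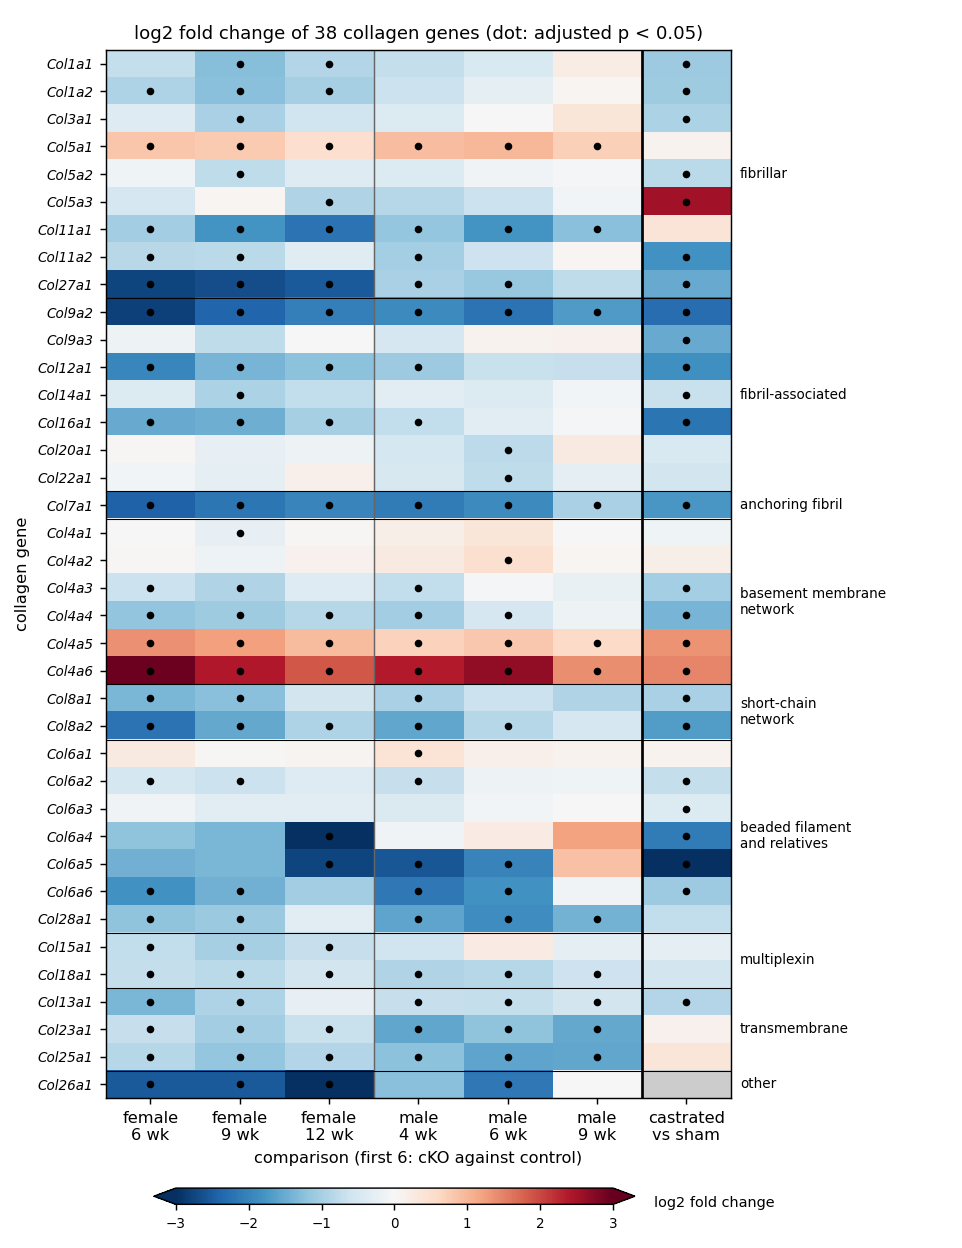
Log2 fold changes (colour) of the 38 collagen genes (rows, by structural class) in the 6 comparisons of cKO with control glands and in castrated against sham cKO glands (columns), with a dot where the adjusted p was under 0.05. Most dots are on lower values, Col4a5, Col4a6 and Col5a1 have dots on higher values in all 6 genotype comparisons, and males at 9 weeks have the fewest dots among these.

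Some members were called each time. The 6 genotype comparisons include males at 6 weeks, where genotype cannot be told apart from a range of library numbers, described below. Col4a5, Col4a6 and Col5a1 were called higher in all 6 genotype comparisons. Col7a1, Col9a2, Col11a1, Col18a1, Col23a1 and Col25a1 were called lower in all 6. Another 5, Col4a4, Col8a2, Col13a1, Col27a1 and Col28a1, were called lower in 5 of the 6. The call of Col27a1 in males at 4 weeks was lost in 6 of the 8 fits that left out a library. That of Col4a4 in males at 6 weeks was lost in 5 of 8. Col6a3 and Col9a3 were called in none, and no member was called in both directions. Col26a1 was called lower in 4 of the 6, but it became a member through control groups, so these calls are not independent of that rule. Its call in males at 6 weeks was lost in 7 of the 8 fits that left out a library. At 9 weeks in females 26 members had all 4 cKO glands below all 4 controls and 3 had all above, as had 19.6% and 13.8% of all genes tested. In males of that age 7 members lay below and 2 above (12.1% and 9.59% of all genes), and 29 overlapped.

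The basement membrane network is built by the 6 chains of type IV collagen, encoded by 3 pairs of genes that lie head to head. Col4a1 and Col4a2 make the form found in nearly every basement membrane, and Col4a3, Col4a4, Col4a5 and Col4a6 add specialised forms. These pairs did not move alike in the cKO glands. The pair Col4a5 and Col4a6 was called higher, Col4a3 and Col4a4 were called lower or not called, and Col4a1 and Col4a2 were called in 1 comparison each. Col4a6 spans 141165403 to 141474076 on the minus strand of the X chromosome (GRCm38) and Col4a5 spans 141475385 to 141689234 on the plus strand, with 1309 bases from one annotated start to the other. On chromosome 1, Col4a4 (82448423 to 82586849, minus strand) and Col4a3 (82586921 to 82722059, plus strand) are separated by 71 bases.

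The sequence before the start of Col4a4, Col4a6 and Col4a5 is printed because the 2 genes of a head-to-head pair start close to each other and the pairs moved in opposite directions. It is taken from the RefSeq promoter table of GRCm38.p6, 5′ to 3′ on each gene's own strand, and reduced to bases outside annotated exons. Capitals mark a match to the GC box GGGCGG on either strand, the core of the binding site of Sp1. The first line is the whole space between Col4a4 and Col4a3, at chr1:82586850-82586920. The others are chrX:141474077-141474326 before Col4a6 and chrX:141475169-141475384 before Col4a5.
Col4a4 (minus strand): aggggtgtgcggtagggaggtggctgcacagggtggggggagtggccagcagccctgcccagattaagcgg
Col4a6 (minus strand): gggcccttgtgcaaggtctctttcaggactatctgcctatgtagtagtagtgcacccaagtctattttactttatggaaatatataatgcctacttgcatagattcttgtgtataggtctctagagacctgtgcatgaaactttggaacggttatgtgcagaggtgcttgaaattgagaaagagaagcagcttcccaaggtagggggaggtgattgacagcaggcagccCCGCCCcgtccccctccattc
Col4a5 (plus strand): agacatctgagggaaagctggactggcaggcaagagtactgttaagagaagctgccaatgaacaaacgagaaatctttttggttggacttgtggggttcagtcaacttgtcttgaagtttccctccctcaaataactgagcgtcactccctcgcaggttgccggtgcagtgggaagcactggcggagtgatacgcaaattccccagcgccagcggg
The stretch between Col4a4 and Col4a3 is 69.0% G and C and has no GC box. The stretch before Col4a6 is 47.6% G and C and has 1 match, written there as its reverse complement, and that before Col4a5 is 52.3% G and C and has none, although the full window of Col4a5 has 1 in the annotated exon that was trimmed here. Promoter windows of 250 bases were found for 30 of the 38 members, and 21 of those 30 held the GC box on either strand in at least 1 window. Of all 32851 single windows 32.7% held it. Members are counted here by gene and the shares of all windows by window. A gene with more windows has more chances, so the 2 measures are not alike, for this and the other sites. The sites searched for SF1 (CAAGGTCA, 1.33% of all windows) and for TCF/LEF factors (CTTTGAT, 3.21%) were each found in 1 member, Col7a1 and Col9a2. The TATA box TATAAA, held by 12.4% of all windows, was found in 3 members, Col3a1, Col11a2 and Col13a1. A match is a string of letters and not a measured site.

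Col4a6 had the largest rise of the family in the genotype comparisons. At 6 weeks in females its levels were 10.3, 4.96, 6.75 and 8.18 CPM in the 4 controls and 74.8, 58.5, 58.9 and 38.4 CPM in the 4 cKO glands. Every cKO gland lay far above every control, a log2 fold change of 2.93 ± 0.31 (SE; adjusted p = 1.49e-07, edgeR). The rise was 2.40 ± 0.31 at 9 weeks (adjusted p = 3.11e-06) and 1.86 ± 0.31 at 12 weeks (adjusted p = 9.18e-05). In males at 4 weeks the controls had 6.46, 12.3, 7.04 and 4.55 CPM and the cKO glands 38.3, 47.5, 33 and 39.9 CPM, again without overlap (2.39 ± 0.36, adjusted p = 2.91e-05). It was 2.66 ± 0.38 at 6 weeks (adjusted p = 1.64e-05) and 1.39 ± 0.37 at 9 weeks (adjusted p = 0.00865). At 9 weeks the male cKO glands had 9.25, 12.9, 5.91 and 6.21 CPM against 2.75, 1.67, 3.80 and 4.74 CPM in controls, which is a narrower gap but still none overlapped.

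Col4a5, whose mutation causes X-linked Alport syndrome of the kidney in people, rose less in fold but from a higher level. At 6 weeks in females its controls had 69.1, 58.2, 56.0 and 67.0 CPM and the cKO glands 172, 162, 179 and 132 CPM. The groups did not overlap, and the log2 fold change was 1.36 ± 0.16 (adjusted p = 4.12e-07). It was 1.22 ± 0.16 at 9 weeks and 0.95 ± 0.16 at 12 weeks. In males it was 0.70 ± 0.20 at 4 weeks (adjusted p = 0.0167) and 0.81 ± 0.21 at 6 weeks (adjusted p = 0.00641), where 1 cKO gland lay within the range of the controls. At 9 weeks in males the controls had 19.9, 19.4, 25.8 and 31.5 CPM and the cKO glands 37.0, 39.5, 37.0 and 31.4 CPM. There the lowest cKO gland fell just under the highest control (0.58 ± 0.21, adjusted p = 0.0423), and the call was lost in 6 of the 8 fits that left out 1 of these libraries.

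Per kilobase of exon, Col4a5 exceeded Col4a6 by 10.4 ± 2.52 times in female controls at 6 weeks and by 3.42 ± 0.56 times in cKO glands (mean ± SD, n = 4). In males at 4 weeks the ratios were 9.70 ± 2.11 and 2.90 ± 0.65. The gap between the paired genes was thus smaller in cKO glands of both sexes at the youngest age. The ratio of Col4a1 to Col4a2 moved little at 6 weeks in females, 1.3 ± 0.02 in controls and 1.27 ± 0.03 in cKO glands.

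**Figure D2:**
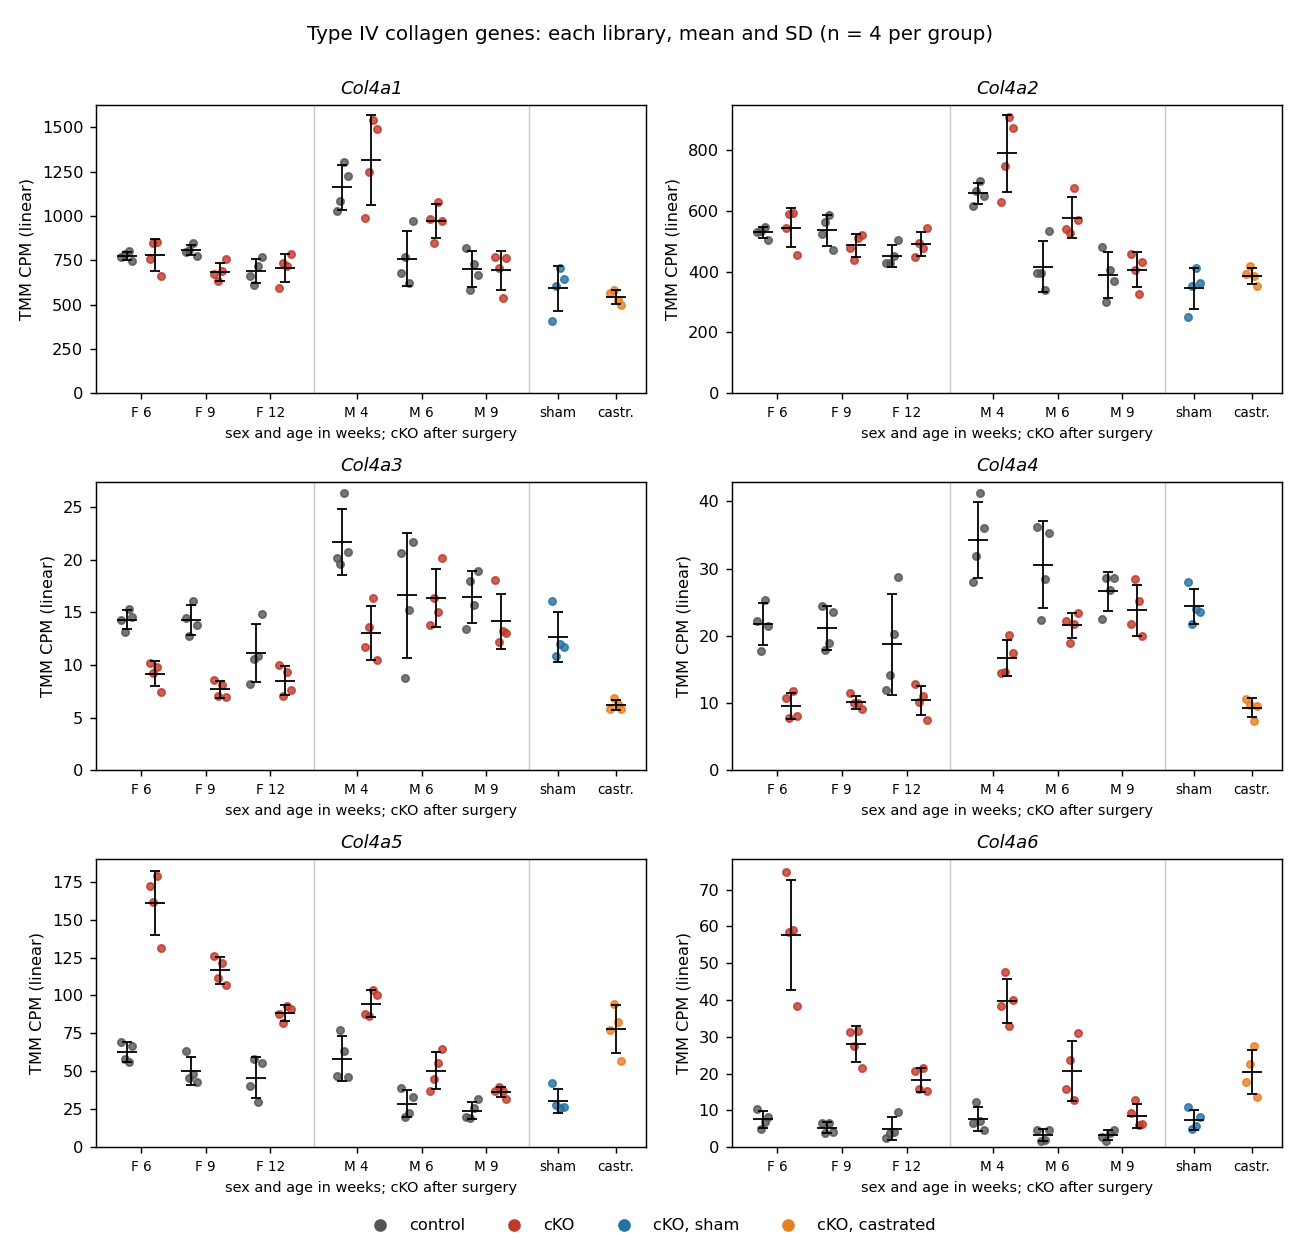
TMM-scaled CPM (linear axis from 0) of the 6 type IV collagen genes in each library (points), with mean and SD of the 4 libraries, by sex, week and genotype and after surgery. The means of Col4a5 and Col4a6 lie higher in cKO than in control glands and in castrated than in sham glands, while Col4a3 and Col4a4 lie lower in cKO glands of females at 6 and 9 weeks and in castrated glands.

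Col4a3 and Col4a4, the partners in the space of 71 bases, went the other way. Col4a4 had 22.2, 17.7, 25.3 and 21.5 CPM in female controls at 6 weeks and 10.7, 7.82, 11.8 and 8.03 CPM in cKO glands, all below (-1.18 ± 0.22, adjusted p = 0.000166). In males at 4 weeks it had 28, 31.9, 41.2 and 36.0 CPM in controls and 14.4, 14.6, 20.1 and 17.5 CPM in cKO glands (-1.05 ± 0.15, adjusted p = 2.02e-05), again without overlap. Male controls at 9 weeks had 22.5, 28.7, 26.8 and 28.5 CPM and cKO glands 21.7, 28.4, 25.2 and 19.9 CPM. These last groups overlapped and Col4a4 was not called there (-0.16, adjusted p = 0.472). Col4a3 had 14.4, 12.8, 16.1 and 13.8 CPM in female controls at 9 weeks and 8.57, 7.04, 8.11 and 7.0 CPM in cKO glands, without overlap (-0.89 ± 0.15, adjusted p = 5.91e-05).

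Col4a1 and Col4a2 were among the most abundant collagens, and most of their groups overlapped. Col4a1 had 766, 786, 801 and 748 CPM in female controls at 6 weeks and 755, 846, 850.4 and 661 CPM in cKO glands. Only at 9 weeks in females was it called, -0.24 ± 0.09 (adjusted p = 0.0426), a call lost in 7 of the 8 fits that left out a library and with another scaling. Col4a2 was called higher in males at 6 weeks, 0.47 ± 0.15 (adjusted p = 0.0246), with 395, 398, 339 and 536 CPM in controls and 540.2, 528, 675 and 571 CPM in cKO glands, where 1 control lay above the lowest cKO gland. That call was lost in 3 of the 8 fits that left out a library. The 6 endothelial markers together had 808 to 1008 CPM in these controls and 1243 to 1430.4 CPM in these cKO glands, with 3 called higher, and their part in this result was not tested.

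Among fibrillar collagens, Col5a1 was the only member called higher in all 6 comparisons. It encodes a chain of type V collagen, which starts fibrils and limits their diameter. Its levels were 188, 138, 165 and 218 CPM in female controls at 6 weeks and 311, 374, 316 and 254 CPM in cKO glands, which did not overlap (0.82 ± 0.16, adjusted p = 0.000283). In males at 4 weeks controls had 204, 242, 313 and 224 CPM and cKO glands 348, 487, 459 and 559 CPM, all above (0.91 ± 0.14, adjusted p = 4.66e-05). At 9 weeks in males the ranges were 178 to 226 CPM and 281 to 367 CPM (0.72 ± 0.14, adjusted p = 0.000737). The smallest rise was 0.50 ± 0.16 in females at 12 weeks (adjusted p = 0.0215), which lost its call in 4 of the 8 fits that left out a library. Its partner Col5a2 was called lower in females at 9 weeks (-0.76 ± 0.20, adjusted p = 0.00527), and per kilobase Col5a1 exceeded Col5a2 by 10.3 ± 2.15 times in female controls at 6 weeks against 20.6 ± 4.56 times in cKO glands.

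The chains of the common fibre-forming collagens, Col1a1 and Col1a2 of type I and Col3a1 of type III, differed with week and sex. At 9 weeks in females Col1a1 had 208, 189, 135 and 157 CPM in controls and 71.9, 69.7, 73.1 and 68.2 CPM in cKO glands. The cKO glands were close together and all below the controls (-1.28 ± 0.29, adjusted p = 0.00134). Col1a2 fell by 1.26 ± 0.27 on the log2 scale (adjusted p = 0.000855) and Col3a1 by 0.97 ± 0.33 (adjusted p = 0.0255), although Col3a1 lost its call in 3 of the 8 fits that left out a library. At 6 weeks in females replicate 3 of the cKO stood apart: Col1a1 had 98.1, 68.1, 183 and 80.2 CPM in cKO glands against 154, 171, 206 and 178 CPM in controls. Col1a1 was not called there (-0.72, adjusted p = 0.0540), and without that replicate it was (-1.11, adjusted p = 0.00268). The same held for Col3a1, with 102, 72.9, 198 and 71.6 CPM in cKO glands (adjusted p = 0.386 with that replicate and 0.0439 without it).

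At 12 weeks in females replicate 4 of the controls stood apart. Col1a2 had 118, 153, 180.1 and 373 CPM in controls and 82.9, 135, 102 and 94.8 CPM in cKO glands. It was called (-0.99, adjusted p = 0.00845), and without that control it was not (-0.53, adjusted p = 0.0748). Col1a1 likewise changed from -0.88 (adjusted p = 0.0274) to -0.53 (adjusted p = 0.173), and its call was lost in 4 of the 8 fits that left out a library. That library was also high for Col6a4, a chain of the type VI family, with 0.853, 1.14, 2.86 and 23.1 CPM in the controls and 0.674 to 1.36 CPM in cKO glands, whose log2 fold change moved from -2.99 to -0.88 without it. Without it 14 members were called lower at 12 weeks, not 18.

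In males at 9 weeks none of Col1a1, Col1a2 and Col3a1 was called. Col1a1 had 259.8, 120.2, 205 and 143 CPM in controls and 119, 263, 306 and 155 CPM in cKO glands, which covered nearly the same range (0.21, adjusted p = 0.666). Col11a1, a chain of type XI collagen, was called lower in each genotype comparison, and at 12 weeks in females had 5.75, 7.59, 7.44 and 8.71 CPM in controls and 1.31, 1.25, 1.52 and 2.27 CPM in cKO glands. The groups lay far apart (-2.21 ± 0.22, adjusted p = 1.26e-07). Its call in males at 4 weeks was lost in 5 of the 8 fits that left out a library. The other type XI chain, Col11a2, was called lower in 3 of the 6 comparisons, and in males at 9 weeks its groups overlapped.

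Col27a1, a fibrillar collagen known from cartilage, had one of the largest falls. It had 30.4, 28.1, 24.5 and 39.1 CPM in female controls at 6 weeks and 6.93, 2.97, 4.45 and 3.86 CPM in cKO glands, with no overlap (-2.75 ± 0.24, adjusted p = 1.18e-08). In males at 6 weeks the controls had 81.9, 87.8, 87.6 and 75.9 CPM and the cKO glands 37.1, 41.3, 24 and 48 CPM, again all below. At 9 weeks in males the ranges were 42.1 to 110.2 CPM in controls and 28.6 to 70.0 CPM in cKO glands, which overlapped, and it was not called (-0.77, adjusted p = 0.0708). Of the 9 fibrillar genes, 1 was called higher in each comparison, and 4, 7 and 5 were called lower in females at 6, 9 and 12 weeks, against 3, 2 and 1 in males at 4, 6 and 9 weeks.

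**Figure D3:**
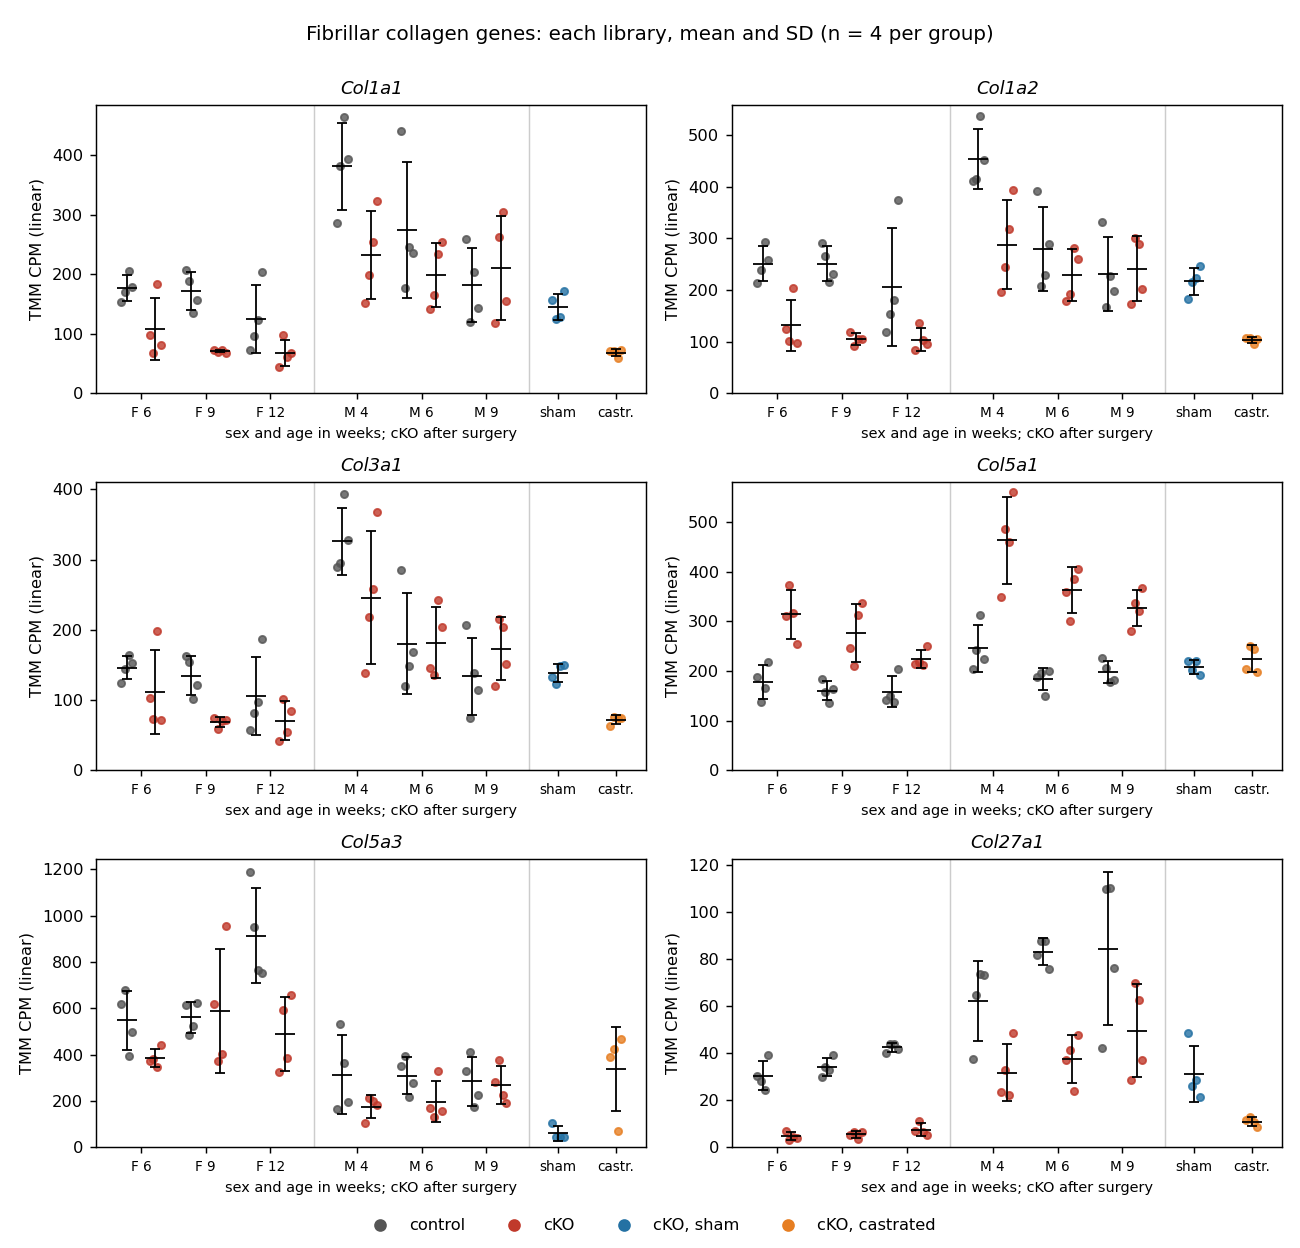
TMM-scaled CPM (linear axis from 0) of Col1a1, Col1a2, Col3a1, Col5a1, Col5a3 and Col27a1 in each library (points), with mean and SD of the 4 libraries. Col5a1 lies higher in cKO glands in each sex and week, Col1a1, Col1a2 and Col3a1 lie lower in cKO glands of females at 9 weeks and in castrated glands, and their control and cKO glands overlap in males at 9 weeks.

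Col7a1 makes the anchoring fibrils that tie basement membrane to the matrix beneath. It had 16.7, 14.7, 12.5 and 16.3 CPM in female controls at 6 weeks and 2.15, 2.03, 4.21 and 2.78 CPM in cKO glands, all below (-2.43 ± 0.20, adjusted p = 5.51e-09). In males at 4 weeks controls had 19.1, 32.9, 27.3 and 24.3 CPM and cKO glands 6.34, 6.02, 7.27 and 4.23 CPM (-2.10 ± 0.20, adjusted p = 5.76e-08). At 9 weeks in males the gap was smaller, 14.7 to 28.8 CPM against 9.45 to 13.1 CPM (-0.97 on the log2 scale), though the groups still did not overlap.

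Fibril-associated collagens sit on the surface of fibrils. The numbers called lower, of 7, were 3, 4 and 3 in females and 3, 3 and 1 in males, in order of week. Col9a2 was the member called in all 6 comparisons: it had 2.49, 3.15, 3.09 and 3.15 CPM in female controls at 6 weeks and 0.435, 0.411, 0.411 and 0.441 CPM in cKO glands, a clear separation at a low level (-2.80 ± 0.36, adjusted p = 2.58e-06). Col12a1 had 41.2, 30.6, 33.4 and 32.9 CPM in these controls and 9.54, 7.33, 12.5 and 6.4 CPM in the cKO glands, all below (-1.95 ± 0.31, adjusted p = 2.91e-05). Col16a1 fell by 1.46 ± 0.18 on the log2 scale at 9 weeks in females (adjusted p = 2.13e-06), while in males at 9 weeks its groups overlapped (-0.06, adjusted p = 0.830).

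The multiplexins Col15a1 and Col18a1 bind heparan sulfate chains at the edge of basement membranes, and a fragment of the type XVIII chain is endostatin. Col18a1 had 142, 179, 150.2 and 186 CPM in male controls at 4 weeks and 80.8, 74.5, 102 and 93.4 CPM in cKO glands, without overlap (-0.91 ± 0.12, adjusted p = 6.80e-06). It was called lower in every week of both sexes, with log2 fold changes from -0.91 to -0.56. Col15a1 was called lower in females at each week, for example with 78.9 to 94.8 CPM in controls and 36.5 to 54.2 CPM in cKO glands at 9 weeks. In males it was not called: at 6 weeks controls had 61.7 to 116 CPM and cKO glands 77.0 to 146 CPM.

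The transmembrane collagens Col13a1, Col23a1 and Col25a1 are held in the cell membrane, and Col13a1 is known from the junction of nerve and muscle. All 3 were called lower in females at 6 and 9 weeks and in males at each week. Of these calls, that of Col13a1 in males at 9 weeks was lost in 5 of the 8 fits that left out a library, and that of Col23a1 in males at 6 weeks in 3 of 8. Col25a1 had 2.59, 3.87, 6.42 and 4.30 CPM in male controls at 9 weeks and 1.22, 1.53, 1.38 and 1.70 CPM in cKO glands, without overlap (-1.56 ± 0.28, adjusted p = 0.000279). Col13a1 had 13.8 to 16.1 CPM in female controls at 6 weeks and 4.57 to 7.14 CPM in cKO glands, all below. At 12 weeks it was not called, with 11.5 to 16.2 CPM in controls and 7.97 to 13.8 CPM in cKO glands.

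In the beaded filament group, type VI collagen links cells to the surrounding fibrils, and its 3 common chains did not move together. Col6a1 had the highest level per kilobase of all members in female controls at 6 weeks, 143.7 CPM per kilobase, before Col4a1 at 103.9. It was called higher in males at 4 weeks (0.42 ± 0.13, adjusted p = 0.0246) and not elsewhere. At that age controls had 924, 677, 951 and 936 CPM and cKO glands 943, 1159, 1202 and 1357 CPM, where only the lowest cKO gland reached into the range of the controls. Female glands had lower Col6a2 in the cKO at 6 weeks (-0.52, adjusted p = 0.0492) and 9 weeks (-0.64, adjusted p = 0.0174), as had male glands at 4 weeks (-0.69, adjusted p = 0.00875). The call of Col6a2 at 6 weeks was lost in 6 of the 8 fits that left out a library. Col6a3 was called in no genotype comparison, its log2 fold change ranging from -0.44 to 0.00. The short-chain collagens Col8a1 and Col8a2, of the network under endothelium, were both called lower in females at 6 and 9 weeks and in males at 4 weeks, and neither in males at 9 weeks. The call of Col8a1 in males at 4 weeks was lost in 6 of the 8 fits that left out a library.

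The summed level of the family was compared next. The 38 genes together took 0.397% of CPM in female controls at 6 weeks and 0.374% in cKO glands, with ranges of 0.392% to 0.401% and 0.323% to 0.419% that overlapped. At 9 weeks the means were 0.394% and 0.338%, with ranges that overlapped, and at 12 weeks the ranges were 0.363% to 0.443% in controls and 0.276% to 0.359% in cKO glands, which did not. The summed means at 12 weeks were 3859 and 3212 CPM, and a large part of that gap lay in 1 fibrillar gene, Col5a3. It had 1188, 950, 764 and 753 CPM in these controls and 326, 593, 383 and 655 CPM in these cKO glands. The sum without Col5a3 was not tested. Over the groups the mean share lay between 0.271% and 0.543%. Per kilobase, type IV chains made up 33.7% ± 0.76 of collagen in female controls at 6 weeks and 38.4% ± 1.20 in cKO glands, and fibrillar chains 28.7% ± 1.90 and 23.5% ± 1.61 (SD, n = 4). The fibrillar share was 28.8% ± 2.51 and 28.2% ± 5.25 at 9 weeks and 36.0% ± 2.76 and 25.6% ± 4.15 at 12 weeks in females, so at 9 weeks the means differed by less than the SD. In males at 9 weeks the type IV share was 29.2% ± 1.68 and 28.9% ± 4.57, and the fibrillar share 24.4% ± 2.84 and 26.8% ± 4.24.

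With age, control glands changed little in females and somewhat in males. In female controls no member was called between 12 and 6 weeks by edgeR (0.0912% of all genes were called in either direction). At an unadjusted p under 0.05 there were 9 members, and DESeq2 called 2. Male controls at 9 weeks had 0 members higher and 7 lower than at 4 weeks (0.913% and 2.22% of all genes), namely Col1a2, Col3a1, Col4a1, Col4a2, Col4a5, Col5a2 and Col18a1. At an unadjusted p under 0.05 none was higher by edgeR, and DESeq2 called none higher and 9 lower. Col4a5 fell by 1.27 on the log2 scale and Col3a1 by 1.29. Counts of this comparison depended on single libraries: 2 members were called lower without replicate 2 of the 9-week controls and 4 without replicate 2 of the 4-week controls. The calls of Col1a2 and Col3a1 were lost in 6 and 5 of the 8 fits that left out a library. With library numbers above 24 alone (3 and 2 libraries) edgeR called 0 members and 0.182% and 0.129% of all genes higher and lower. Numbers up to 24 leave 1 library at 4 weeks, so little can be called there.

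In cKO glands Col4a5 and Col4a6 fell with age in both sexes. Col4a5 also fell in male controls, and neither gene was called for a change of the genotype effect with age, tested below. In females from 6 to 12 weeks Col4a6 changed by -1.65 ± 0.30 (adjusted p = 0.00151) and Col4a5 by -0.87 ± 0.15 (adjusted p = 0.00147), and with Col6a1 they were the 3 members called lower, while Col13a1 (1.07) and Col8a2 (0.87) were called higher (3.90% and 6.03% of all genes). Without replicate 2 of the cKO glands at 6 or at 12 weeks 3 members were called in all. The calls of Col6a1 and Col8a2 were each lost in 4 of the 8 fits that left out a library. In male cKO glands from 4 to 9 weeks 9 members were called higher and 8 lower, shares close to the 20.8% and 20.9% of all genes. Col4a6 changed by -2.21, Col4a5 by -1.38, Col4a2 by -0.96 and Col4a1 by -0.93, and on the other side Col6a5 by 3.21 and Col7a1 by 0.96. Between 4 and 6 weeks 4 members were called in either direction (16.6% of all genes): Col4a5, Col6a1 and Col4a2 lower and Col11a2 higher. Between 6 and 9 weeks edgeR called 0 (0.761% of all genes), and 10 had an unadjusted p under 0.05.

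Whether the genotype effect itself changed with age was tested as an interaction. In females Col13a1 alone was called, its effect at 12 weeks being higher than at 6 weeks by 1.12 ± 0.22 (adjusted p = 0.0299), where 0.316% of all genes were called higher. With only the groups compared in the fit it was not called. Leaving out 1 library lost the call for replicate 3 of the controls or replicate 4 of the cKO glands at 6 weeks, replicate 1 or 2 of the controls or replicate 1, 2 or 3 of the cKO glands at 12 weeks, and 3 members were called without replicate 4 of the latter. In males 4 members were called higher at 9 than at 4 weeks (2.94% of all genes), Col6a5 by 3.43, Col7a1 by 1.13, Col8a2 by 1.05 and Col4a4 by 0.89. For Col7a1, Col8a2 and Col4a4 the fall in cKO glands was smaller at 9 weeks. Col8a2 lost its call in 11 and Col4a4 in 5 of the 16 fits that left out a library. The count was 2 without replicate 1 of the controls at 9 weeks, replicate 2 or 3 of the cKO glands at 9 weeks, or replicate 3 or 4 of the controls at 4 weeks. Male libraries fall into numbers up to 24 and above 24 in their titles, and these ranges are unevenly spread over the groups: 3 of 4 controls and no cKO gland at 4 weeks were above 24. With that range as a covariate 0 members and 0.0585% of all genes were called higher in this interaction. Genotype at 4 weeks goes largely with the range, so the change of effect with age cannot be fully told apart from it.

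The same covariate bears on the male genotype comparisons. With it 3 members were called higher and 11 lower at 4 weeks (1.35% and 8.61% of all genes). At 6 weeks they were 3 and 6 (2.86% and 6.58% of all genes) and at 9 weeks 3 and 9 (10.7% and 13.9%). With numbers up to 24 alone, where 1 control is left at 4 weeks, they were 3 and 3 there (0.238% and 3.52%). At 6 weeks all controls were above 24 and all cKO glands up to 24, so that week has no value within a range. Genotype at 6 weeks in males thus cannot be told apart from the range. The covariate counts for 6 weeks carry over a range difference estimated at 4 and 9 weeks only. Without replicate 1 or without replicate 2 of the cKO glands 10 members were called lower at 6 weeks. At 9 weeks each genotype had 2 libraries in each range: with numbers above 24 alone 1 member was called higher and 8 lower (8.92% and 9.38% of all genes), and with numbers up to 24 alone 3 and 0 (0.76% and 2.7%). Col4a6 was not called at 9 weeks with numbers above 24 (0.52, adjusted p = 0.527), nor Col4a5 (0.27, adjusted p = 0.573), nor Col5a1 with numbers up to 24 (0.52, adjusted p = 0.179).

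The sexes were compared by the difference of their genotype effects at the weeks they share, since males and females lie in separate tables. At 6 weeks the effect was higher in males than in females for 5 members (5.08% of all genes): Col27a1 by 1.59, Col8a2 by 1.34, Col12a1 by 1.26, Col16a1 by 1.17 and Col15a1 by 0.97. Col15a1 lost its call in 12 and Col12a1 in 4 of the 16 fits that left out a library. The count was 3 without replicate 1 of the female controls, replicate 2 of the female cKO glands, or replicate 2 or 3 of the male controls. At 9 weeks it was higher in males for 10 members (5.37% of all genes). These were Col27a1 by 1.86, Col1a1 by 1.48 (adjusted p = 0.0227), Col16a1 by 1.39 (adjusted p = 0.00254), Col3a1 by 1.33 (adjusted p = 0.0269), Col1a2 by 1.31 (adjusted p = 0.0110), Col7a1 by 1.18, Col8a2 by 1.01, Col4a4 by 0.89, Col14a1 by 0.84 and Col4a3 by 0.66. All 10 had a negative genotype effect in females. Of the 16 fits that left out a library, Col4a3 lost its call in 13, Col14a1 in 12, Col8a2 in 10 and Col3a1 in 6. At 9 weeks the count fell to 6 without replicate 2 of the female controls or replicate 3 of the male cKO glands, and the split of all genes called was 62.1% higher with edgeR and 51.1% higher with DESeq2.

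**Figure D4:**
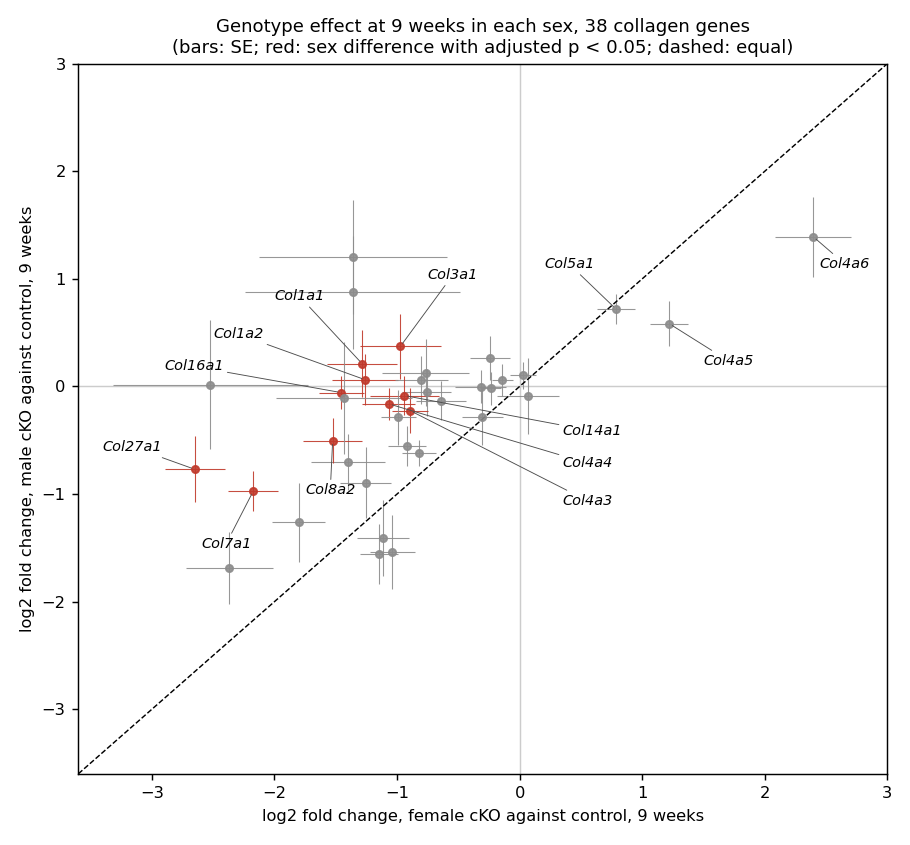
Log2 fold change of cKO against control glands at 9 weeks for each collagen gene in females (x axis) and males (y axis), with SE bars, a dashed line of equal effects, and in red the 10 genes called for the difference between the sexes. The red points lie left of 0 on the x axis and above the dashed line.

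Castration of male cKO animals was followed by lower levels of many collagens. Of 37 members tested (Col26a1 was not), 3 were called higher and 22 lower in castrated than in sham glands, where 19.8% and 23.8% of all genes were called. The members' median log2 fold change was -0.82 and that of all genes -0.01. In 21 of the 37 every castrated gland lay below every sham gland, as in 22% of all genes tested. Castrated and sham glands were all from cKO animals, so these values are set only beside, not against, those of the genotype comparisons.

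Col16a1, a fibril-associated collagen, had the smallest p. It had 97.2, 82.3, 99.9 and 74.0 CPM in sham glands and 22.3, 18.3, 16.3 and 20.3 CPM in castrated glands, without overlap (-2.20 ± 0.14, adjusted p = 2.39e-06). Type I and III collagen were lower as well. Col1a1 had 156, 125, 129 and 171 CPM in sham and 71.7, 70.8, 58.6 and 72.2 CPM in castrated glands (-1.09 ± 0.13, adjusted p = 0.000101). Col1a2 had 182, 215, 223 and 245 CPM in sham and 107, 108, 95.3 and 104 CPM in castrated glands (-1.06 ± 0.11, adjusted p = 4.94e-05). Col3a1 had 132, 122, 148 and 149 CPM and 62.8, 76.3, 73.9 and 74.1 CPM (-0.94 ± 0.11). None of these 3 overlapped between the groups.

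The largest fold was that of Col6a5, a chain of type VI collagen related to the common ones. It had 4.6, 4.95, 14.8 and 7.96 CPM in sham glands and 0.442, 0.5, 0.165 and 0.423 CPM in castrated glands, far below (-4.41 ± 0.47). In the genotype comparison at 9 weeks it varied among cKO glands, at 1.17, 18.2, 13.6 and 7.53 CPM. Col4a3 and Col4a4 were again lower together, Col4a4 with 28.1, 21.8, 24 and 23.6 CPM in sham and 10.6, 9.71, 7.28 and 9.47 CPM in castrated glands (-1.40 ± 0.14), and Col4a3 with 16.1, 10.9, 12.0 and 11.7 CPM against 5.79, 6.84, 6.32 and 5.83 CPM (-1.03). Neither pair of groups overlapped.

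Col4a5, Col4a6 and Col5a3 were the members higher after castration. Col4a5 had 42.3, 27.7, 26 and 26.6 CPM in sham glands and 77.3, 94.5, 82.8 and 57.0 CPM in castrated glands, all above (1.35 ± 0.20, adjusted p = 0.000357). Col4a6 had 10.8, 4.84, 5.73 and 8.23 CPM in sham and 17.8, 22.5, 27.6 and 13.6 CPM in castrated glands, also all above (1.47 ± 0.28, adjusted p = 0.00192). Col5a3, a type V chain, had 106, 46.0, 43.3 and 41.7 CPM in sham and 389, 426, 70.7 and 466 CPM in castrated glands. Castrated replicate 3 lay below sham replicate 1, and the others lay above all sham glands (2.52 ± 0.52, adjusted p = 0.00309). Col5a1, which was higher in every genotype comparison, was not called here (0.11), with 191 to 220.3 CPM in sham and 198 to 251 CPM in castrated glands.

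**Figure D5:**
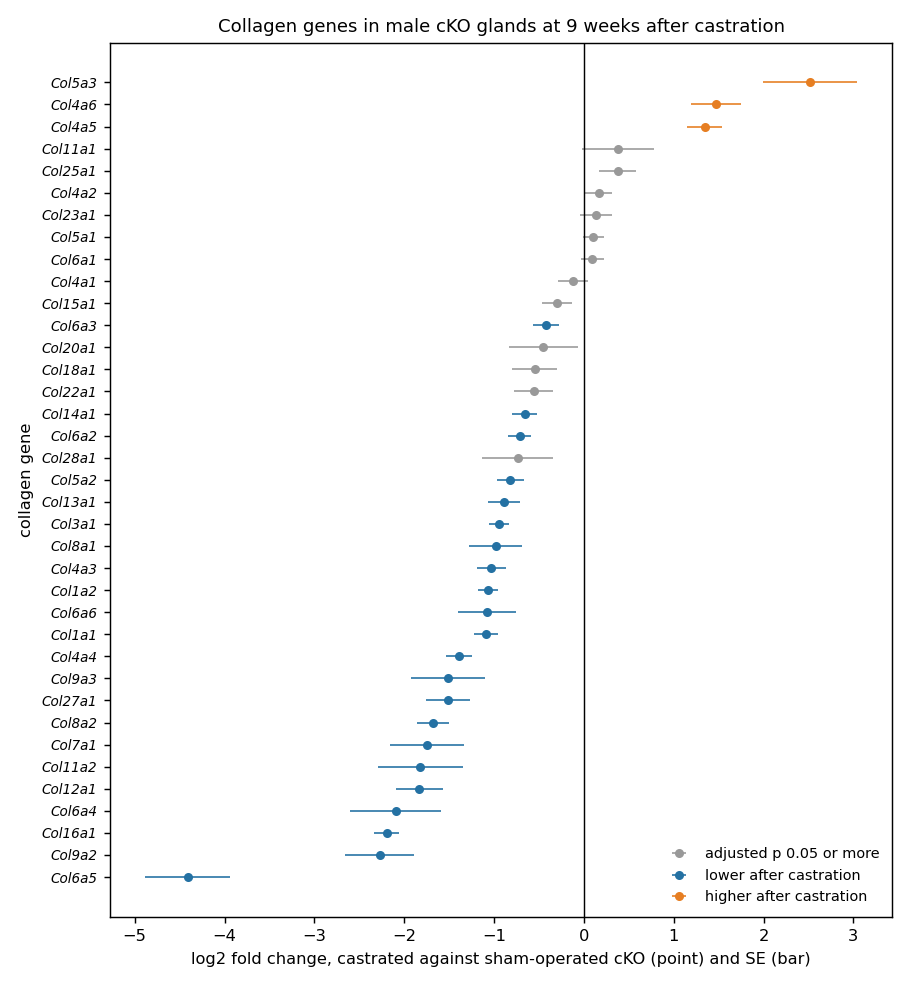
Log2 fold change of castrated against sham glands of male cKO animals at 9 weeks for the 37 collagen genes tested (points, ordered by value) with SE bars, coloured by call. The 22 genes called lower include Col6a5 at the far left, and Col4a6, Col4a5 and Col5a3 are the 3 called higher.

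The lower members after castration were set beside those of the genotype comparisons, which are from other animals. Of the 22, 18 (81.8%) were also called lower in female cKO glands at 9 weeks, which is 69.2% of that list, and 14 (63.6%) in male cKO glands at 4 weeks, 73.7% of that list. With male cKO glands at 9 weeks, the age of the surgery groups, 3 (13.6%) were shared, 37.5% of that list. Among all 38 members, 68.4%, 50% and 21.1% were called lower in these comparisons, in the same order. The numbers shared thus depend on how long each list is. Col11a1, Col18a1, Col23a1 and Col25a1, which were called lower in all 6 genotype comparisons, were not called after castration, at 0.38, -0.55, 0.13 and 0.37 on the log2 scale. Castration and genotype effects were not tested against each other.

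Partners of collagen were counted from lists of genes by role, here in females at 9 weeks and after castration. Of all genes tested, 14.6% were called higher and 20% lower in females at 9 weeks, and 19.8% and 23.8% after castration. Fibril-binding matrix (small proteoglycans, periostin and the like) had 13 of 16 genes lower in females at 9 weeks (median -1.11) and 13 of 16 lower after castration (median -1.06). Postn, a matrix protein that binds collagen, had 27.1 ± 7.13 CPM in female cKO glands and 104 ± 11.3 CPM in controls (SD, n = 4; -1.94 on the log2 scale), and after castration Lum and Dcn, proteoglycans that coat fibrils, changed by -1.92 and -1.72. Other basement membrane genes had 11 of 15 lower in females (median -0.49) and 8 lower with 2 higher after castration (median -0.53). Their summed level went otherwise: its ranges overlapped in females at 9 weeks, and it was higher after castration. It was 2704 to 3329 CPM in sham and 5115 to 5564 CPM in castrated glands. Lama5, a laminin chain, changed by -1.14 in females. Sparc, which binds type IV collagen, rose by 1.39 after castration. Processing and crosslinking enzymes had 5 of 13 lower in females (median -0.33) and 8 lower with 1 higher after castration (median -0.80). Their summed level was 1329 to 1520 CPM in female controls at 9 weeks and 1554 to 1669 CPM in cKO glands, and its ranges overlapped after castration. Lox, which crosslinks collagen, changed by -1.88 in females and Adamts2, which removes the N-terminal propeptide, by -1.61 after castration.

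Genes of folding and modification were called in both directions. Of 19, 4 were higher and 5 lower in females at 9 weeks (median 0.03), and their summed level was 2050 to 2156 CPM in controls and 2277 to 2493 CPM in cKO glands, without overlap. After castration, of 18 tested 2 were higher and 4 lower (median 0.05), where 19.8% and 23.8% of all genes were called. These castration counts are no larger than the shares of all genes. Serpinh1, the chaperone HSP47 that folds the collagen helix, had 419 ± 7.84 CPM in cKO glands and 250.3 ± 40.2 CPM in controls (SD, n = 4; 0.74 on the log2 scale), and it rose by 0.75 after castration. Collagen receptors had 9 of 11 lower and 1 higher in females (median -0.58) and 6 lower after castration (median -0.71). Genes of TGF-beta signalling had 7 of 19 lower and 1 higher in females (median -0.22) and 8 lower with 5 higher after castration (median -0.16). In males at 9 weeks fibril-binding matrix had 5 of 16 lower and 1 higher (median -0.36) and other basement membrane genes 1 of 15 lower (median -0.10). Of all genes tested there, 10.4% were called higher and 13.6% lower.

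Markers of cell types were counted as well, beside the shares of all genes given above, and not all of them moved in the direction of the collagens. Of the 8 markers of fibroblasts and capsule, 5 were called lower in females at 9 weeks, 6 in males at 4 weeks, 2 in males at 9 weeks and 7 after castration, where 1 was higher. Their summed level was 227.1 to 238.3 CPM in female controls at 9 weeks and 120.3 to 149.1 CPM in cKO glands, and 260.2 to 289.4 CPM in sham and 108.4 to 170.6 CPM in castrated glands. In males at 9 weeks it was 226.4 to 248.2 CPM in controls and 159.9 to 220.0 CPM in cKO glands. All 6 markers of medullary chromaffin cells were called lower in every genotype comparison and after castration, at 3682 to 4660 CPM in female controls and 229.5 to 444.9 CPM in cKO glands at 6 weeks. In males at 9 weeks, where the fewest collagens were called, their sum was 4691 to 8675 CPM in controls and 832 to 1315 CPM in cKO glands. All 4 markers of the zona glomerulosa were likewise called lower in every genotype comparison and after castration, at 1126 to 1359 CPM in female controls and 382 to 601 CPM in cKO glands at 9 weeks. Of the 6 markers of steroidogenic cortex, 5 were higher after castration (median 1.05), at 19886 to 30001 CPM in sham and 46693 to 50219 CPM in castrated glands. In females at 9 weeks 2 of them were called higher and 1 lower. Endothelial markers were called lower in 5 of 6 and higher in 1 in females at 9 weeks, higher in 3 in males at 6 weeks, and lower in 5 after castration. Schwann cell markers were called lower in 5 of 6 in females at 9 weeks, and macrophage markers were higher in 6 of 7 in females at 9 weeks and lower in 6 of 7 after castration. Summed mural and smooth muscle markers were 343 to 369 CPM in male controls at 9 weeks and 373 to 467 CPM in cKO glands. In the surgery groups they were 328 to 369 CPM in sham and 206 to 238 CPM in castrated glands. No marker on these lists was at 0 in all 56 libraries, and their part in the collagen results was not tested.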

How the data were processed

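Poly(A) RNA libraries of whole adrenal glands were made with a directional kit, per the labels. The deposited values are raw counts per Ensembl gene in separate tables for females, males and the surgery groups. Per the submitters' processing notes, which name tools without roles, the authors worked on GRCm38 with featureCounts, cutadapt 1.16, STAR 2.7.6a, DESeq2 1.30.1 and RSEM 1.6.3. No source used here says whether counting used strand. Symbols came from the GENCODE annotation of GRCm38.

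Members and lists were chosen with earlier results of these data known. In every comparison 14 preset members were looked at, members called there could be named, the 8 smallest p-values were named with values where space allowed, and at most 4 genes came from each partner list. Genes were filtered with filterByExpr (minimum count 10), scaled by TMM and tested in R 4.3.3 with edgeR 4.0.16 (quasi-likelihood, Benjamini-Hochberg), all groups of a table in 1 fit. That left 18645, 17086 and 16961 genes in the female, male and surgery tables. Standard errors are approximate, the log2 fold change over the root of F. Sexes were compared in joint fits at 6 and 9 weeks. Scripts were tested on simulated data. Alternatives were DESeq2 1.42.0, other scaling, other filters, fewer groups, blocks, library number, reporter and leaving out each library in turn (88 fits). Library numbers above 24 alone were added after seeing the data.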

Additional observations from a re-analysis of the deposited data

Results flagged for a closer look

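Single libraries far from the other 3 of their group were looked for in 280 sets, 20 genes in each of 14 groups, and 11 were found; chance gives about 1 in 20. In the surgery groups sham replicate 1 had 106 CPM of Col5a3 (41.7 to 46.0 in the others) and 42.3 CPM of Col4a5 (26 to 27.7). Sham replicate 1 also stood apart over all genes, as given with the castration results. Castrated replicate 3 had 58.6 CPM of Col1a1 (70.8 to 72.2 in the others), and castrated replicate 1 had 4.83 CPM of Col7a1 (1.40 to 1.69). In females replicate 3 of the cKO at 6 weeks had 8.40 CPM of Col6a5, where the others had 0.154 to 0.503. Replicate 4 of the cKO at 12 weeks had 251 CPM of Col5a1 (212 to 218). Col18a1 stood apart in replicate 2 of the controls at 6 weeks, at 171 CPM (124 to 132), and in replicate 1 of the cKO at 12 weeks, at 71.0 CPM (89.3 to 89.9). In males replicate 2 of the controls at 4 weeks had 677 CPM of Col6a1 (924 to 951) and replicate 3 had 26.4 CPM of Col4a3 (19.6 to 20.7). Replicate 4 of the controls at 6 weeks had 33.1 CPM of Col7a1 (26.9 to 27.7).

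Genotype effects that differed between weeks or sexes, by edgeR's test of the difference itself, were as follows on the log2 scale. From 6 to 12 weeks in females the effect on Col13a1 was higher by 1.12. From 4 to 9 weeks in males it was higher by 3.43 for Col6a5, 1.13 for Col7a1, 1.05 for Col8a2 and 0.89 for Col4a4. In males against females at 6 weeks it was higher by 1.59 for Col27a1, 1.34 for Col8a2, 1.26 for Col12a1, 1.17 for Col16a1 and 0.97 for Col15a1. At 9 weeks it was higher by 1.86 for Col27a1, 1.48 for Col1a1, 1.39 for Col16a1, 1.33 for Col3a1, 1.31 for Col1a2, 1.18 for Col7a1, 1.01 for Col8a2, 0.89 for Col4a4, 0.84 for Col14a1 and 0.66 for Col4a3. In males at 6 weeks genotype goes wholly with the library number range, so the sex differences at that week cannot be told apart from it.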

How the results depend on the processing

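No log2 fold change of a member changed sign under the alternatives tried where it was called in either fit. Signs of values called in neither fit were not checked. For single genes the call stayed the same in 2087 cases, was lost in 119 and gained in 21, leaving out the fits without 1 library. In the fits without 1 library these were 2994, 251 and 27. Of the counts of members called, 143 stayed within 1.5 times the reported count and 15 moved further, leaving out the fits without 1 library. With the male library number range as a covariate, 11 members were called lower at 4 weeks, 6 at 6 weeks, and 0 in the male change of effect with age. With numbers up to 24 alone, 3 were called lower at 4 weeks and 0 at 9 weeks in cKO against control glands, 0 with age in male controls, 5 lower with age in male cKO glands, and 0 in the male change of effect. With numbers above 24 alone, 1 was called higher at 9 weeks and 0 with age in male controls. Males at 6 weeks could not be fitted within a range. DESeq2 called 2 members with age in female controls and 3 in the female change of effect; with only the groups compared in the fit, 0 and 2 were called in the female and male change of effect. The cause of these moves was not tested, and the fits within a range hold fewer samples (1 male control at 4 weeks with numbers up to 24).

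Same-numbered replicates did not pair: over 24 pairs the correlations of deviations ran from -0.253 to 0.107, 1 was over 0.1, and 4 correlated best with their own number. With the replicate block 5 members were called in the comparison of the sexes at 9 weeks. No paired analysis was possible for the surgery groups because all 4 sham samples carry the number 1, so the groups share fewer than 2 numbers. The share called higher among all genes was 51.1% with DESeq2 and 62.1% with edgeR for the sexes at 9 weeks, 49.3% and 59.9% for the male change of effect, 42.6% and 29.2% with age in male controls, 79.4% and 100% with age in female controls, and 81.8% and 98.3% for the female change of effect.

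Leaving out each library in turn gave, for members higher and lower in cKO glands, 3 to 4 and 19 to 25 in females at 6 weeks, 3 and 22 to 26 at 9 weeks, and 2 to 3 and 14 to 22 at 12 weeks. In males the ranges were 3 to 4 and 14 to 21 at 4 weeks, 3 to 5 and 10 to 16 at 6 weeks, and 2 to 4 and 6 to 9 at 9 weeks. After castration they were 3 and 20 to 25. With age they were 0 in female controls, 3 to 6 in female cKO glands, 2 to 9 in male controls, and 6 to 9 higher and 7 to 9 lower in male cKO glands. The change of effect with age gave 0 to 3 in females and 2 to 6 in males, and the sexes differed in 3 to 6 members at 6 weeks and 6 to 12 at 9 weeks. Male libraries held the fewest counts. How depth bears on the calls was not tested.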
